A study of Homo sapiens with 6 samples.

Results

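SUM159 is an established human breast cancer line of the triple-negative, mesenchymal kind. The comparison described here sets ITGB4-low SUM159 cells of clone 1, taken from mouse lungs after bleomycin was given by way of the trachea, against cultured ITGB4-low cells of clone 1 and of clone 3. It rests on 3 of the 6 libraries of the series, chosen by their titles: 1 bleomycin lung library and 2 controls. Bleomycin is a chemotherapy agent that breaks DNA and inflames lung tissue, and ITGB4 is the beta-4 integrin subunit by which the submitters class the cells as low or high. The lung cells reached the lung by tail vein injection. After dissociation the suspension spent a night in dishes, and tdTomato-positive cells were sorted the next day. The control cells were cultured only, so injection, life in the lung, dissociation and sorting go with bleomycin and cannot be told apart from it. The labels name no mouse strain, dose, time in the lung or number of mice, and each control is 1 clone. The other 3 libraries were clones 1 and 3 from lungs shared with LM2 cells, a lung-metastatic derivative of MDA-MB-231, and cultured ITGB4-high cells.

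Epithelial cells hold to the basement membrane through hemidesmosomes, in which the integrin of ITGA6 and ITGB4 binds laminin-332 outside the cell and keratin filaments inside it. Carcinoma cells can lose such epithelial parts and take on mesenchymal ones, or hold both at once. Disseminated breast cancer cells can stay dormant in the lung, and inflammation is known to end that state in mouse models. NF-kB is the main transcription factor of inflammatory genes, whereas YAP with TEAD, and SMADs under TGF-beta, drive genes of adhesion, matrix and spreading.

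Members of these last programmes stood mostly on opposite sides of the controls, so promoters of a few are shown, with the motif of the gene's own list, NF-kB or TEAD, in capitals. They were picked from members 2-fold beyond both controls that hold this motif, so its presence in each window is no result. Each is the 250 bases upstream of the start site, 5′ to 3′ on the gene's strand, from RefSeq (GRCh38.p14). The first pair are targets of YAP and TGF-beta that were low in bleomycin lung cells: THBS1 (chr15:39580829-39581078, plus strand) and CCN2 (chr6:131951373-131951622, minus strand). The other 3 are inflammatory genes that were high: VCAM1 (chr1:100719492-100719741, plus strand), CCL20 (chr2:227813592-227813841, plus strand) and IL6 (chr7:22726950-22727199, plus strand).
THBS1: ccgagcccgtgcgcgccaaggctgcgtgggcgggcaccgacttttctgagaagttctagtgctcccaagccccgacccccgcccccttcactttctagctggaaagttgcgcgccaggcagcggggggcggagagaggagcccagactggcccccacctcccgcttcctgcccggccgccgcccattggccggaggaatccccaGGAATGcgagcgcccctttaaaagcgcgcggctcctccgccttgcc
CCN2: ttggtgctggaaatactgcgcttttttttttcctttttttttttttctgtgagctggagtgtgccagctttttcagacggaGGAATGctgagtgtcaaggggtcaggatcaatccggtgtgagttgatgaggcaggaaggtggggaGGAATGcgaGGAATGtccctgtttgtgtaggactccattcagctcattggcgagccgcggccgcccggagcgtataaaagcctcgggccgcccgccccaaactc
VCAM1: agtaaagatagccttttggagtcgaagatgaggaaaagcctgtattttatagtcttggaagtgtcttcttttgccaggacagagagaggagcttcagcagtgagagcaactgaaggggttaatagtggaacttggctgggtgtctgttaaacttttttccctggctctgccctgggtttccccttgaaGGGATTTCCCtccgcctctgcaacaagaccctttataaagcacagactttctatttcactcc
CCL20: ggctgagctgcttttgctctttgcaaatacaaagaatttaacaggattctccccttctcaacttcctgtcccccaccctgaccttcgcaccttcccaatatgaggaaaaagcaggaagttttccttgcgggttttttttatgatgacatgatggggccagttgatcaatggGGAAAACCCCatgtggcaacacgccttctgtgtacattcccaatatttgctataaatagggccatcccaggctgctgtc
IL6: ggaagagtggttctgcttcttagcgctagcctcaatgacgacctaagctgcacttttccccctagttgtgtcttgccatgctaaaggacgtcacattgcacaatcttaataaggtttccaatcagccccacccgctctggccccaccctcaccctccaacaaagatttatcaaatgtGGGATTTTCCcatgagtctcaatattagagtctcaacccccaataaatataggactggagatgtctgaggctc
The TEAD motif was searched as CATTCC on both strands and the NF-kB motif as its kappa-B consensus on both strands, with overlapping matches of 1 motif counted each. The match in THBS1 began at -46 from the start site. CCN2 held 3, at -169, -104 and -95. The kappa-B match began at -62 in VCAM1, -79 in CCL20 and -73 in IL6. The CCL20 window also holds CATTCC, not in capitals, at -45, and the other 4 windows hold no match to the other motif. Of 27305 RefSeq promoters of that length, 11.9% held the TEAD motif and 6.60% the kappa-B motif. Promoters were matched for 22 of the 26 tested genes on a list of TGF-beta and YAP targets, and 7 of the 22 held CATTCC, including 5 of the 10 matched genes that were at least 2-fold below both controls. Of 34 tested genes on a list of NF-kB targets and inflammatory cytokines, 25 had a promoter and 13 of these held the kappa-B motif. Of the 17 matched genes at least 2-fold above both controls, 7 held it, a smaller share than among all 25. The kappa-B motif was in 3 of the 22 promoters of the first list and CATTCC in 2 of the 25 of the second. These matches describe letters in a window and not binding.

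Total counts were 15446892 for the bleomycin lung library, 14013264 for control clone 1 and 22222121 for control clone 3. Levels below are CPM (reads of a gene per 1e6 counted) with TMM factors, and control levels are given with clone 1 first. A gene without a read could stand at up to 0.192 CPM in the bleomycin library (3 counts), for counting error only. The controls were close to each other, with a biological coefficient of variation of 0.0799, against 0.305 for the pair of LM2 lung libraries. The labels do not say that samples came from separate cultures or animals, so p-values cover only the spread among these libraries, which may be technical. The markers of the line fitted its label: VIM stood at 3080 CPM against 3330 and 3601, and 2 EPCAM reads, 1 CDH1 read, 1 ESR1 read and 0 PGR reads were counted in bleomycin lung cells. AXL, another gene of the mesenchymal state, was at 188 CPM against 479 and 493.

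Bleomycin lung cells lay farther from both controls than the controls lay from each other. The median absolute log2 ratio was 0.334 over clone 1 and 0.358 over clone 3, against 0.146 between the controls. Of 15673 tested genes, 942 were at least 2-fold above both controls (6.01%) and 1045 at least 2-fold below both (6.67%), by a rule of size that carries no test and adds a prior count of 2 to ratios. Between the controls, 606 genes were 2-fold apart, 207 higher and 399 lower in clone 3. The gap widened with size: 154 genes were 8-fold above both controls and 121 8-fold below, whereas 6 genes differed 8-fold between the controls. Among the 10862 genes with a mean log2 CPM of 2 or more, 312 were 2-fold above and 517 below, against 14 and 23 between controls. Protein-coding genes made up 79.8% of the genes 2-fold above, 77.9% of those below and 80.1% of all tested.

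**Figure D1:**
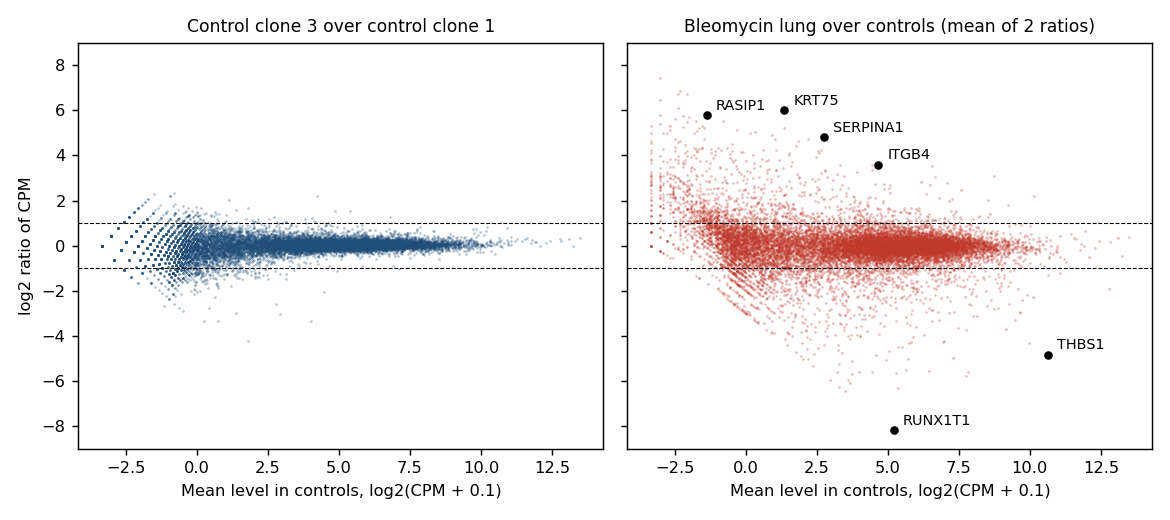
log2 ratio of CPM (vertical axis) against the mean level in the 2 controls as log2(CPM + 0.1) (horizontal axis), 1 point per tested gene, for control clone 3 over control clone 1 (left) and for bleomycin lung cells over the controls (right, mean of the 2 ratios). Dashed lines mark 2-fold. The right cloud is the wider one. KRT75, RASIP1, SERPINA1 and ITGB4 lie in its upper part, above the 2-fold line, among other genes with changes as large. In all, 154 genes were at least 8-fold above both controls.

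With the spread of all 6 libraries, 4 genes rose in bleomycin lung cells and 0 fell (edgeR's quasi-likelihood test with Benjamini-Hochberg adjustment, 0.0255% and 0% of 15673 genes, 2266 at an unadjusted p under 0.05). They were KRT75, ITGB4, RASIP1 and SERPINA1. KRT75 encodes a keratin of the hair follicle and stood at 167 CPM against 2.7 and 2.25. ITGB4 stood at 306 CPM against 25.9 and 24.6. SERPINA1, the antitrypsin that restrains neutrophil elastase, stood at 187 CPM against 7.06 and 6.16. In each the bleomycin library was far outside the control range: 59.1-fold above the nearer control for KRT75, 11.7-fold for ITGB4 and 26.0-fold for SERPINA1. The fitted log2 changes were 6.08 ± 0.20 (SE, adjusted p = 0.0179 by edgeR) for KRT75 and 3.60 ± 0.15 (adjusted p = 0.0323 by edgeR) for ITGB4. SERPINA1 had 4.82 ± 0.26 (adjusted p = 0.0493 by edgeR). RASIP1, a Ras-interacting protein best known from endothelium, had 353 reads against 5 and 5 and a change of 6.30 ± 0.31 (adjusted p = 0.0420 by edgeR). Its level lies under the minimum of the naming rule, so it is named after its values were seen. The cultured ITGB4-high library held 75.6 CPM of KRT75, 384 of ITGB4, 16 of RASIP1 and 10.2 of SERPINA1. Of these 4 genes, SERPINA1 alone stood near its control level there. ITGB4 (ENSG00000132470) lies at chr17:75721328-75757818 on the plus strand, KRT75 (ENSG00000170454) at chr12:52424070-52434525 on the minus strand, RASIP1 (ENSG00000105538) at chr19:48720587-48740721 on the minus strand and SERPINA1 (ENSG00000197249) at chr14:94376747-94390693 on the minus strand (GRCh38).

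These calls depend on the fit. The fit with a replicate block, given first, leaves fewer residual degrees of freedom than the 2 of the fit over all libraries. Across genes, the deviations of clone 1 in the control and LM2 pairs had a correlation of 0.00115, so the clone number carried little shared difference. With the clone as a replicate block (paired by clone, ITGB4-high library left out), 11 genes rose and 2 fell, all 4 above among them (adjusted p = 0.0147 for KRT75, 0.0277 for ITGB4, 0.0322 for RASIP1 and 0.0191 for SERPINA1, edgeR). The added ones included THBS1, lower by a log2 change of -4.71 (adjusted p = 0.0277 by edgeR), IL1RL1, the receptor of interleukin-33, higher by 3.28 (adjusted p = 0.0432), and the complement protease gene C1R, higher by 4.2 (adjusted p = 0.0494). XAF1, an interferon-induced gene of apoptosis, was higher by 4.50 (adjusted p = 0.0277 by edgeR). Without control clone 1 or without control clone 3, 0 genes passed in either direction, with 815 and 692 at an unadjusted p under 0.05. Without LM2 clone 1, 2113 genes were called higher and 2311 lower, and without LM2 clone 3, 2041 and 2161. The spread used by the test comes from the control and LM2 pairs. DESeq2 called 254 higher and 326 lower.

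No other gene named from here on passed the test in the fit over all libraries. Its values are given as levels, and further members of lists are named for their roles after their values were seen.

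The genes farthest above both controls included VCAM1, an adhesion molecule bound by leukocyte integrins, at 95.0 CPM against 2.42 and 2.48. JAG2, a Notch ligand, was at 40.8 CPM against 1.39 and 0.919. KYNU, an enzyme of tryptophan breakdown, was at 55.3 CPM against 1.32 and 2.25. Of these 3, each clear of both controls, JAG2 came nearest to the threshold (adjusted p = 0.101 by edgeR). CCL20, a chemokine for CCR6-bearing cells, was at 53.9 CPM against 2.22 and 1.65. CLDN1, a tight junction protein, was at 107 CPM against 5.96 and 5.42. SH3PXD2A, the podosome scaffold TKS5, was at 114 CPM against 6.37 and 2.67. The controls of SH3PXD2A were themselves more than 2-fold apart by level, whereas those of VCAM1 and CLDN1 were nearly equal. XAF1 was at 90.3 CPM against 4.22 and 2.80. SLC37A2, a sugar phosphate transporter, was at 74.7 CPM against 3.46 and 3.22. DNER, a membrane protein with EGF-like repeats that can bind Notch, was at 103 CPM against 6.10 and 5.75.

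Several of the genes farthest below both controls had few or no reads in bleomycin lung cells. RUNX1T1, a transcriptional corepressor, had 0 reads in bleomycin lung cells against 35.0 and 39.0 CPM, which is at least 182-fold lower. GFRA1, the co-receptor of GDNF, had 3 reads against 52.3 and 84.0 CPM. CYP4B1, a cytochrome P450 of lung and bladder, was at 4.49 CPM against 204 and 250. KDR, the main VEGF receptor, was at 1.73 CPM against 70.8 and 105. Here too the bleomycin library stood clear of both controls, but the LM2 libraries were far apart from each other: CYP4B1 stood there at 0.155 CPM in clone 1 and 48.1 in clone 3, and KDR at 0.155 and 6.52. CEMIP, a hyaluronan-degrading protein, was at 3.78 CPM against 165 and 271. HS6ST3, a heparan sulfate sulfotransferase, was at 4.81 CPM against 156 and 154. IL16, a chemoattractant cytokine for CD4+ cells, was at 0.321 CPM against 22 and 21.6. ILDR2, a membrane protein of the immunoglobulin family, was at 0.385 CPM against 39.1 and 42.3, and TSPAN18, a tetraspanin, at 0.641 against 41.1 and 36.1. These low levels rest on few reads, 5 for IL16, 6 for ILDR2 and 10 for TSPAN18. PSG4, of a family of close copies whose reads can be split, was at 0.962 CPM against 41.5 and 57.9, and TMEM130 at 0.192 against 13.2 and 18.0.

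**Figure D2:**
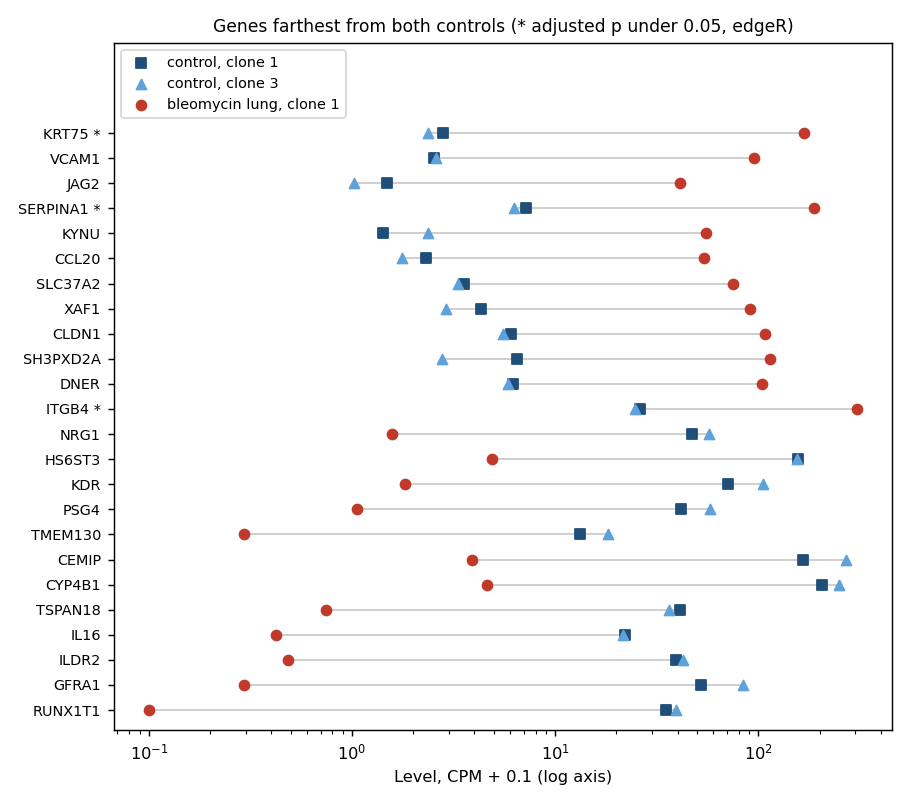
Level of each gene in the 3 libraries, as CPM + 0.1 on a log axis: bleomycin lung cells (circles), control clone 1 (squares) and control clone 3 (triangles). The controls sit close together, and the bleomycin library lies on one side of both. Stars mark KRT75, SERPINA1 and ITGB4, which passed the test; RUNX1T1 had 0 reads in bleomycin lung cells.

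Attachment genes stood mostly above the controls. Of 11 tested hemidesmosome and laminin-332 genes, 1 passed, 5 were 2-fold above both controls and 0 were 2-fold below (6.01% and 6.67% of all genes). The list's medians were 0.74 and 0.59 log2 over clones 1 and 3 (all genes -0.019 and -0.028). Beside ITGB4, its partner ITGA6 was at 371 CPM against 156 and 163. LAMB3, which encodes the beta chain of laminin-332, was at 118 CPM against 7.41 and 5.10. LAMB3 in the LM2 libraries stood at 592 and 22.9 CPM, far apart. COL17A1, the transmembrane collagen of hemidesmosomes, was at 1.6 CPM against 0.139 and 0.0919.

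Of 13 tested keratin genes, 1 passed, 8 were 2-fold above both controls and 1 below (6.01% and 6.67% of all genes). The basal keratins KRT5 and KRT14 pair in the basal layer of epithelia. KRT5 was at 12.3 CPM against 2.29 and 2.67, and KRT14 at 1.35 against 0.0693 and 0.0460. In LM2 lung cells KRT5 stood at 212 and 113 CPM. KRT17 and KRT6A are keratins of stressed and wounded epithelium. KRT17 had 82 reads against 0 and 2, and KRT6A was at 5.06 CPM against 0.139 and 0.506. Control reads alone would not have passed KRT14, KRT17 and KRT6A through the filter on low counts. Other libraries brought them in, which favours counts above the controls. KRT4, of mucosal epithelium, was the member 2-fold below, with 1 read against 2.56 and 5.10 CPM. Of the 13 tested, 9 were above both controls and 4 below both. The keratin list as a whole summed to 809 CPM against 1096 and 1043, so its total was lower than in the controls. Keratins have close paralogs, and reads shared between them can be split.

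Of 40 desmosome and junction genes 18 passed the filter on low counts, 7 of them 2-fold above and 1 below (6.01% and 6.67% of all genes). The filter asks for reads in 1 library only, so genes nearly silent in the controls can enter through the bleomycin library, which favours that direction. Of the 40 genes, 17 had under 3 reads in bleomycin lung cells. DSP, the desmosomal plaque protein that holds keratin filaments, was at 144 CPM against 55.5 and 48.8 (adjusted p = 0.101 by edgeR). CDH3, the basal P-cadherin, and the epithelial transcription factors ELF3 and GRHL3 reached 1.09, 1.15 and 1.22 CPM from 0 to 0.208 in the controls. CDH1 and EPCAM, the defining genes of a full epithelial state, had 1 read against 2 and 0, and 2 reads against 0 and 3.

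Mesenchymal and matrix genes were divided. Of 44 tested, 6 were 2-fold above and 10 below both controls (6.01% and 6.67% of all genes), with medians of -0.29 and -0.35. Among regulators, ZEB1 was at 164 CPM against 311 and 278, and ZEB2 at 110 against 64.0 and 71.0. SNAI1 was at 4.55 CPM against 1.52 and 1.15, and SNAI2 at 28.4 against 44.0 and 42.5. The ZEB pair and the SNAI pair thus each held 1 member above and 1 below the controls. CDH2, the neural cadherin, was at 121 CPM against 247 and 217, and FN1, fibronectin, at 6995 against 9636 and 9699. Genes of contraction went both ways. MYL9, a myosin light chain, was at 7.82 CPM against 48.0 and 68.8, and TAGLN, an actin-binding protein, at 1.54 against 9.07 and 14.3. ACTA2, smooth muscle actin, was at 15.5 CPM against 6.58 and 8.46. Collagen genes were likewise divided, with COL12A1 at 162 CPM against 780 and 926 and COL6A3 at 1500 against 446 and 294. COL1A1 was at 194 CPM against 36.3 and 29.8. COL1A1 is also a fibroblast marker, and so is PDGFRA, at 221 CPM against 32.6 and 35.2. The 7 fibroblast and smooth muscle markers summed to 471 CPM against 92.5 and 95.7. The 4 that passed the filter were all above both controls, among them ACTA2 and DCN, decorin, at 39.2 CPM against 16.8 and 21.7, while LUM, MYH11 and DES had 4 reads or fewer. The part of other cells in these levels was not tested.

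Targets of TGF-beta and YAP stood low. Of 26 tested, 1 was 2-fold above and 12 were 2-fold below both controls (6.01% and 6.67% of all genes), with medians of -0.81 and -0.89 log2 and a gap between the controls of 0.22. THBS1, a matrix glycoprotein that can activate latent TGF-beta, was at 55.3 CPM against 1405 and 1784. Its level in LM2 lung cells was 279 and 319 CPM, between the bleomycin library and the controls. The fitted change of THBS1 was -4.85 ± 0.29 log2 (adjusted p = 0.0602 by edgeR), which missed the threshold. CCN2, a matricellular protein and a standard YAP target, was at 15.8 CPM against 163 and 270 (adjusted p = 0.0945 by edgeR). CCN1, its relative, was at 130 CPM against 395 and 565. ANKRD1, the third YAP target in common use, was at 3.65 CPM against 7.62 and 10.2. All 3 were below both controls, CCN2 by the widest margin. AMOTL2 and AJUBA, regulators in the Hippo pathway, were at 51.0 against 161 and 185 CPM and at 82.1 against 269 and 267. TGFBI, a matrix protein named for its induction by TGF-beta, was at 1848 CPM against 6345 and 7713, and the ligand gene TGFB2 at 39.3 against 118 and 140. LTBP1, which stores latent TGF-beta in the matrix, was the member 2-fold above, at 7.5 CPM against 2.56 and 2.76.

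Inflammatory genes stood above the controls. Of 34 tested NF-kB targets and inflammatory cytokines, 22 were 2-fold above both controls, against 6.01% of all genes, and 1 was 2-fold below. The list's medians were 2.05 and 1.49 log2, and the controls differed by 0.20. CSF3, which drives neutrophil production, was at 46.2 CPM against 0.623 and 0.414. CX3CL1, a membrane-bound chemokine, was at 14.2 CPM against 0.208 and 0.0919, and CCL5 at 27.1 against 0.623 and 0.322. CXCL8, the main neutrophil chemokine of humans, was at 143 CPM against 10.9 and 19.4. Of these ligand genes, CXCL8 alone was above 1 CPM in the controls. CSF3, CX3CL1 and CCL5 had too few control reads to pass the filter on low counts there, so they entered through other libraries. Such entry favours counts above the controls. IL6 was at 26.7 CPM against 2.01 and 2.80, and IL1A at 63.7 against 9.14 and 7.68. IL1B was at 13.5 CPM against 0.623 and 1.20. In cultured ITGB4-high cells CXCL8 stood at 128 CPM, CSF3 at 35.3 and IL1B at 29.2. CX3CL1, CCL5 and IL6 were lower there than in bleomycin lung cells, at 0.292, 4.82 and 4.09 CPM. LM2 clones 1 and 3 were far apart, with CXCL8 at 1058 and 34.5 CPM, CSF3 at 117 and 0.320, and IL1B at 144 and 4.16. Among adhesion genes and enzymes, ICAM1 was at 156 CPM against 24.9 and 21.6, and PTGS2, cyclooxygenase-2, at 10.6 against 0.762 and 1.24. Feedback genes of the pathway stood above as well: TNFAIP3, an inhibitor of NF-kB signalling, was at 103 CPM against 27.2 and 40.3, and BIRC3 at 649 against 156 and 148. SOD2, the mitochondrial superoxide dismutase and an NF-kB target, was at 5108 CPM against 891 and 1401. CD83 was the member 2-fold below, at 4.94 CPM against 15.2 and 16.4.

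Leukocyte markers moved with this group at low levels. The 11 myeloid markers summed to 13 CPM in bleomycin lung cells against 5.06 and 4.23, and the 5 neutrophil markers to 19.6 against 2.63 and 2.48. PTPRC, the pan-leukocyte gene CD45, was at 2.69 CPM against 0.208 and 0.184. S100A9 was at 15.8 CPM against 1.66 and 1.52, and S100A8 at 3.78 against 0.970 and 0.873. Among myeloid markers, MARCO was at 6.09 CPM against 2.49 and 2.94, CD14 at 1.41 against 0.693 and 0.368, and ITGAM had 8 reads against 0 and 0. CD68 had 25 reads against 6 and 11. Of the 5 myeloid markers that passed the filter, 4 were above both controls, and so were both such neutrophil markers. The filter asks for reads in 1 library only, so a marker high in the bleomycin library alone can pass, which favours that direction. CSF1R had 1 read against 1 and 0, MRC1 1 against 2 and 0, and FCER1G 2 against 2 and 2. S100A9 stood at 5.69 CPM in the cultured ITGB4-high library. The defining markers AIF1, TYROBP, CSF3R, FCGR3B and MPO had 0 reads, as did CD3E, CD2, MS4A1 and NKG7 of lymphocytes. The 6 lymphocyte markers summed to 0.128 CPM against 0 and 0.184. Of endothelial markers CDH5 and CLDN5 had 0 reads and PECAM1 stood at 9.42 CPM against 1.80 and 2.02. The 6 endothelial markers summed to 11.4 CPM against 72.9 and 108, in the controls nearly all from KDR. The 8 lung epithelial markers summed to 3.85 CPM against 6.72 and 6.02. Without NKX2-1, which had 0 reads against 59 and 85, the other 7 summed to 3.85 against 2.63 and 2.11. AGER was at 3.53 CPM against 2.29 and 1.79, with SFTPC, SFTPA1, SCGB1A1 and FOXJ1 at 0 reads. The 5 erythroid markers summed to 0.0641 CPM against 0 and 0.184. The part of these cells in the inflammatory levels was not tested. In bulk RNA, more cells of a kind and more RNA per cell cannot be told apart, and reads of mouse RNA that align to the human genome were not separated.

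Of 24 tested acute-phase, complement and STAT3 target genes, 1 passed (SERPINA1), 11 were 2-fold above and 1 below (6.01% and 6.67% of all genes). ORM1, the acute-phase orosomucoid, had 204 reads against 0 and 1, and 2 and 3 reads in LM2 lung cells (adjusted p = 0.0649 by edgeR against control). C1R and C1S, the proteases that open the classical complement pathway, were at 48.8 against 2.35 and 3.17 CPM and at 57.9 against 5.19 and 9.33 CPM. SAA1 was at 439 CPM against 66.0 and 158, so its controls differed more than 2-fold by level. SAA1 and SAA2 are near copies, as are ORM1 and ORM2. PTX3, a soluble pattern receptor, was the member below, at 103 CPM against 596 and 630.

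Interferon genes were mixed. Of 41 tested type I interferon response genes, 12 were 2-fold above and 2 below both controls (6.01% and 6.67% of all genes). Their medians were 0.79 and 0.75. OAS2, an antiviral sensor of double-stranded RNA, was at 31.7 CPM against 2.49 and 1.84 (adjusted p = 0.0649 by edgeR), and IFI27 at 16.7 against 1.25 and 1.88. EPSTI1 had 99 reads against 1 and 1, yet 1 and 188 reads in the LM2 libraries. RSAD2, the antiviral viperin, was below, at 0.897 CPM against 5.61 and 3.49, and STAT2, a subunit of the factor that drives these genes, at 62.8 against 144 and 141. Of 25 tested interferon-gamma and antigen presentation genes, 4 were 2-fold above and 0 below. They were GBP4, at 9.68 CPM against 0.139 and 0.230, GBP5, at 8.46 against 0.485 and 0.919, and the chemokine genes CXCL10 and CXCL11. The list's medians were 0.20 and 0.20, and 19 of the 25 were above both controls and 3 below both.

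EGF-family ligands differed among themselves. Of 12 tested family genes, 5 were 2-fold above both controls and 2 below (6.01% and 6.67% of all genes). EREG, epiregulin, was at 584 CPM against 91.1 and 90.1. AREG, amphiregulin, was at 58.1 CPM against 13 and 10.1, and TGFA at 15.8 against 1.11 and 1.15. Their receptor gene EGFR was at 443 CPM against 741 and 627. HBEGF was at 17.8 CPM against 5.82 and 6.89. NRG1, a ligand of ERBB3 and ERBB4, was at 1.47 CPM against 47.0 and 56.8, and BTC, betacellulin, at 0.577 against 3.12 and 3.82. EREG, AREG, TGFA and HBEGF thus stood above both controls and NRG1 and BTC below, although BTC too binds EGFR. EREG in LM2 lung cells was at 1962 and 214 CPM. In cultured ITGB4-high cells EREG stood at 887 CPM, TGFA at 64.9, AREG at 46.8 and HBEGF at 28.2.

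Output genes of ERK stood above. Of 28 tested, 13 were 2-fold above and 0 below both controls (6.01% and 6.67% of all genes), with medians of 1.09 and 1.08. The phosphatases DUSP4 and DUSP6, which switch ERK off in feedback, were at 53.8 against 10.1 and 12.9 CPM and at 167 against 28.7 and 38.6 CPM. DUSP5 was at 92.8 CPM against 19.3 and 22.1, and PHLDA1 at 165 against 27.1 and 31.0. In cultured ITGB4-high cells DUSP5 and PHLDA1 were higher still, at 235 and 257 CPM, and DUSP4 and DUSP6 lower, at 15.1 and 78.0. In LM2 clones 1 and 3 PHLDA1 stood at 370 and 35.2 CPM, and DUSP6 at 133 and 22.5. DUSP5 stood there at 174 and 43.9 CPM, and DUSP4 at 13.3 and 20.2. SPRY4, another feedback inhibitor, was at 221 CPM against 63.0 and 74.6. The immediate early list, which dissociation can raise, had 4 of 41 tested genes 2-fold above and 2 below, with medians of 0.39 and -0.07. These counts are near the shares of all genes (9.76% and 4.88% against 6.01% and 6.67%). JUN was at 70.4 CPM against 21.1 and 31.8. The 2 below were CCN1, given above, and NR4A3, at 0.577 CPM against 2.56 and 2.94. The part of dissociation and overnight culture was not tested.

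Secreted and invasion genes followed a like split. Of 26 tested proteases, plasminogen system genes and inhibitors, 1 passed (SERPINA1), 9 were 2-fold above and 4 below both controls. Of all genes 6.01% and 6.67% were so placed. MMP1, the interstitial collagenase, had 126 reads against 0 and 1. MMP14, a membrane-bound matrix protease, was at 6.09 CPM against 0.139 and 0.230, and PLAU, urokinase, at 5.77 against 0.277 and 0.598. MMP2, the gelatinase that MMP14 activates, was below, at 86.3 CPM against 301 and 398. Of 21 tested genes of the lung metastasis signature of MDA-MB-231 derivatives, 10 were 2-fold above and 3 below. VCAM1, MMP1, EREG and PTGS2 are among those above, and NEDD9, a focal adhesion scaffold, is among those below, at 1.6 CPM against 28.3 and 23.3. Of 28 tested genes of the senescence-associated secretory list, 17 were 2-fold above and 1 below, many of them shared with the inflammatory list. IGFBP5 was the one below, at 0.577 CPM against 9.84 and 15.2.

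**Figure D3:**
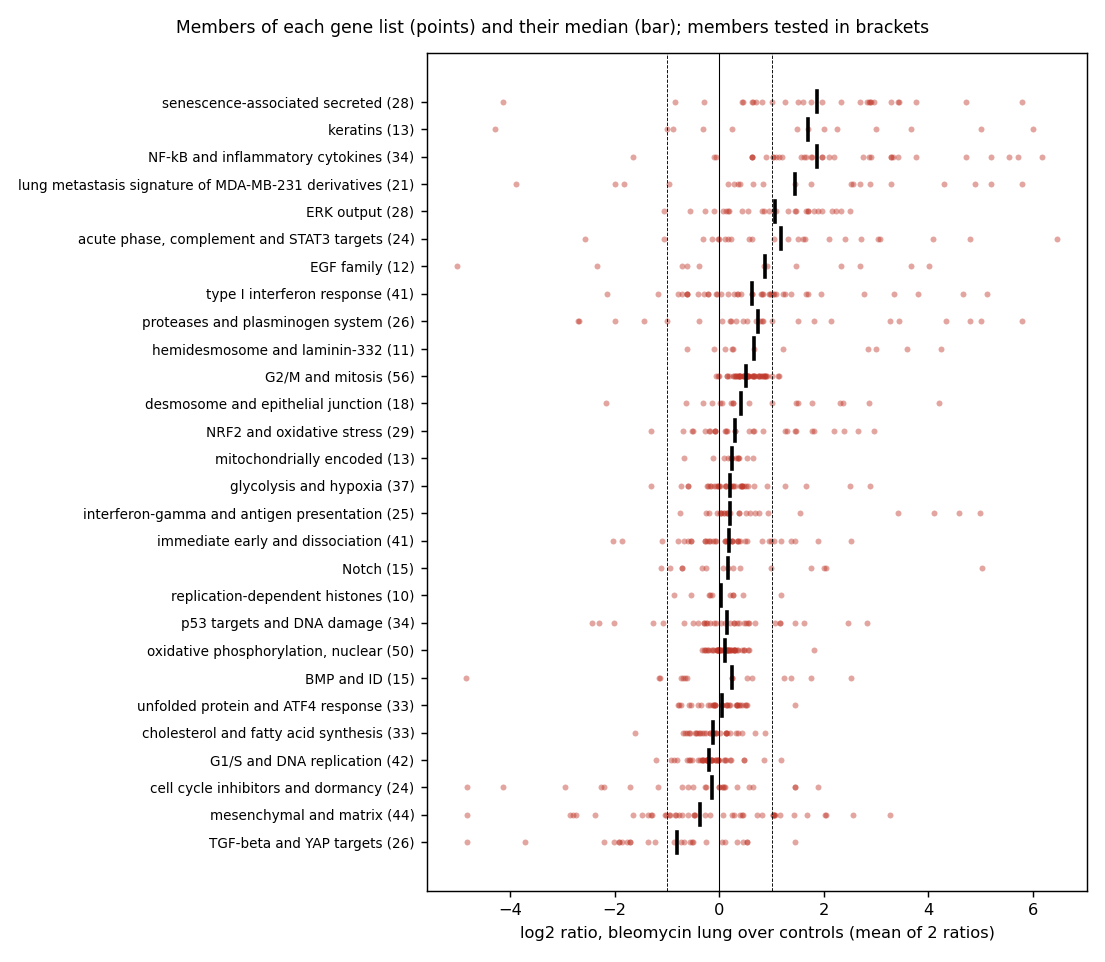
log2 ratio of bleomycin lung cells over the controls (mean of the 2 ratios, horizontal axis) for every tested member of 28 gene lists, with each list's median as a bar and the number of tested members in brackets. Dashed lines mark 2-fold. Inflammatory, secreted and keratin lists have medians near or above 2-fold, and TGF-beta and YAP targets lie lowest.

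Few cell cycle genes were 2-fold beyond both controls, but most G2/M genes lay above both and most G1/S genes below both. Of 56 tested G2/M and mitosis genes, 52 were above both controls and 0 below both, with medians of 0.60 and 0.47 log2, while 1 was 2-fold above. In 51 of the 56 the mean ratio was larger than the gap between the controls, whose median was 0.18. KIF14, a mitotic kinesin, was at 188 CPM against 79.9 and 91.0. CCNB1, the cyclin of mitotic entry, was at 501 CPM against 263 and 309, and TOP2A, the topoisomerase that parts chromosomes, at 1865 against 986 and 1045. MKI67 was at 957 CPM against 716 and 853. Of 42 tested G1/S and replication genes, 8 were above both controls and 28 below both, with medians of -0.13 and -0.22. E2F1, which drives entry into S phase, was the member 2-fold below, at 9.17 CPM against 20.6 and 22.5. Of all tested genes, 6352 lay above both controls and 7032 below both. The controls were cultures at a density the labels do not give.

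**Figure D4:**
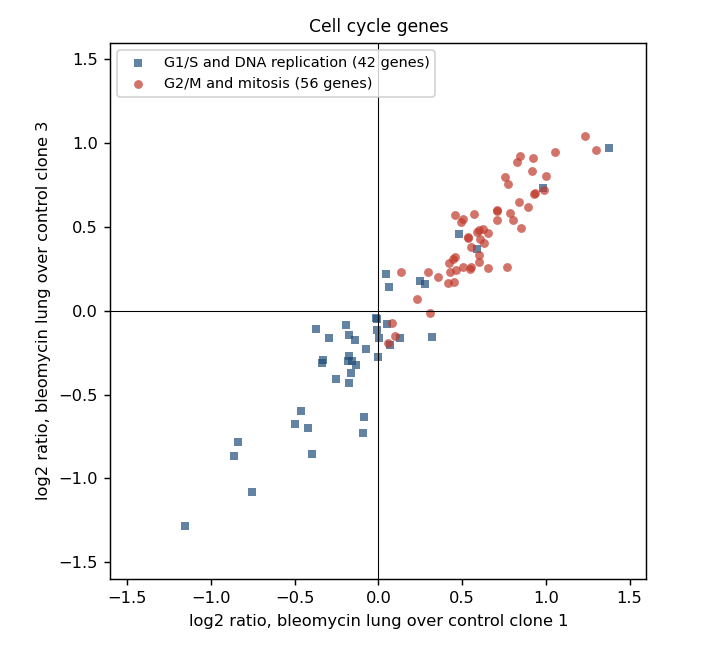
log2 ratio of bleomycin lung cells over control clone 1 (horizontal axis) and over control clone 3 (vertical axis), 1 point per tested gene of the G2/M list (circles) and the G1/S list (squares). Of the G2/M genes 52 of 56 lie in the upper right, and 28 of 42 G1/S genes lie in the lower left.

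Genes tied to growth arrest and to DNA damage did not share 1 direction. Of 24 tested cell cycle inhibitor and dormancy genes, 3 were 2-fold above and 6 below both controls (6.01% and 6.67% of all genes). GAS6, a ligand of AXL that has been linked to dormancy, was at 20.5 CPM against 147 and 172 (adjusted p = 0.0649 by edgeR). DKK1, a Wnt inhibitor, was at 3.21 CPM against 13.2 and 17.8. CDKN1A, the p21 inhibitor and a p53 target, was above at 44.1 CPM against 13.9 and 18.6. Of 34 tested p53 target and DNA damage genes 6 were 2-fold above and 5 below, against the same shares of all genes. GDF15, a stress cytokine, was at 28.9 CPM against 5.33 and 2.94, and MDM2 at 217 against 94.3 and 101. PLK2 and TP53INP1, likewise p53 targets, were at 26.8 against 133 and 159 CPM and at 1.92 against 6.93 and 9.65 CPM. The list's medians were 0.26 and -0.07, on opposite sides of 0.

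Of 15 tested BMP and ID genes, 4 were 2-fold above and 3 below (6.01% and 6.67% of all genes). ID1, an inhibitor of differentiation factors, was at 57.1 CPM against 8.59 and 11.3, and ID3 at 24.6 against 8.03 and 10.9. BMP4, a ligand that induces ID genes, was at 0.705 CPM against 20.2 and 27.8. Of 15 tested Notch genes, 4 were 2-fold above and 0 below, against the same shares of all genes. HES1, a Notch target, was at 53.8 CPM against 9.35 and 18.9.

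Of 29 tested NRF2 and oxidative stress genes, 9 were 2-fold above both controls and 1 below (6.01% and 6.67% of all genes), with medians of 0.40 and 0.23. SOD2, given above, is one of the 9. HMOX1, which degrades heme, was at 53 CPM against 15.2 and 15.4, and FTH1, the ferritin heavy chain, at 2109 against 608 and 589. TXNRD1, a central NRF2 target, was below at 639 CPM against 1466 and 1687. Of 37 tested glycolysis and hypoxia genes 4 were 2-fold above and 0 below, SLC2A3, a glucose transporter, at 101 CPM against 32.5 and 31.8 among them. Of 33 unfolded protein and ATF4 response genes, 1 was 2-fold above and 0 below, and of 33 cholesterol and fatty acid synthesis genes, 0 and 1. Of 50 nuclear oxidative phosphorylation genes, 1 was 2-fold above and 0 below. Neither the 13 mitochondrially encoded genes nor the 10 tested histone genes included one 2-fold beyond both controls.

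The distal short arm of chromosome 11 was higher as a stretch. Its 198 tested genes before 28 Mb, a boundary taken from earlier results of these data, had a median ratio of 1.45 over control clone 1 in bleomycin lung cells, and 158 were above that control. Over the same control their median log2 ratio was 0.05 in control clone 3, and 0.31 and -0.02 in LM2 clones 1 and 3. On the rest of the chromosome, with 661 genes, the median log2 ratio was -0.02 in bleomycin lung cells and 0.35 in LM2 clone 1. The stretch thus stood apart from its own chromosome in the bleomycin library and not in LM2 clone 1. Of 270 windows of 10 Mb with at least 20 genes, 15 had medians beyond 0.2 in 1 direction against both controls. The highest were those of chromosome 11 from 10 to 20 Mb, at 0.65 and 0.72 over 61 genes, and from 0 to 10 Mb, at 0.54 and 0.53 over 123 genes. SAA1, SAA2 and HTATIP2 lie on this stretch. Of its 198 genes 25 were 2-fold above both controls and 13 below, against 6.01% and 6.67% of all genes.

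**Figure D5:**
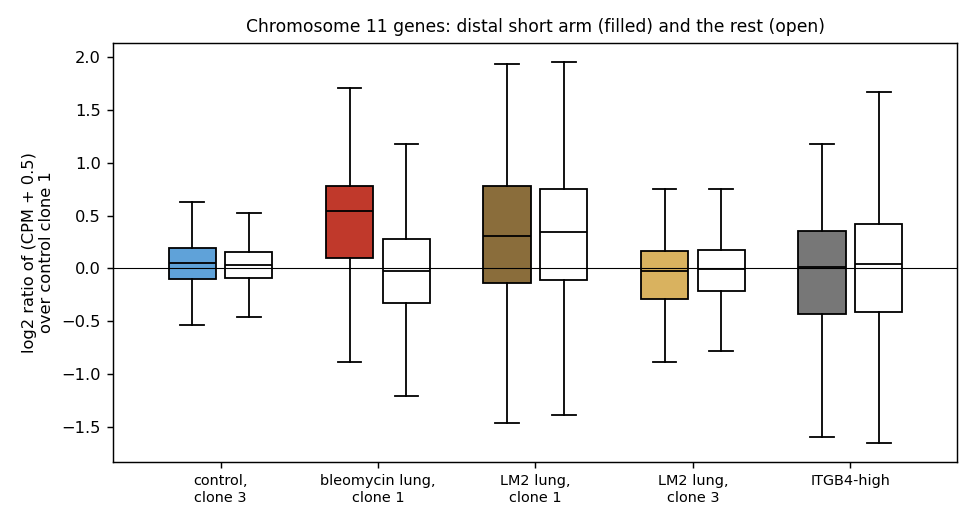
log2 ratio of CPM + 0.5 over control clone 1 for chromosome 11 genes, on the distal short arm (filled boxes, 198 genes) and on the rest of the chromosome (open boxes, 661 genes), for the other 5 libraries. Boxes show the quartiles with the median as a line, and whiskers reach the last value within 1.5 times the box; points beyond are not drawn. In bleomycin lung cells the filled box has a median of 0.54 and the open box one of -0.02.

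Against the LM2 lung libraries, which per the design text also passed through lung, culture and sort, 0 genes passed in either direction (0%, edgeR, 723 at an unadjusted p under 0.05, smallest adjusted p = 0.590), while DESeq2 called 14 higher and 42 lower. Without LM2 clone 1, 557 genes were called higher and 611 lower, and without LM2 clone 3, 1370 and 1599. The smallest p belonged to S100A9, a neutrophil and epithelial alarmin, at 15.8 CPM in bleomycin lung cells against 0.542 and 0.703 in LM2 clones 1 and 3. CYTIP, a regulator of cytohesin and adhesion, was at 61.6 CPM against 11.4 and 10.7, and THBS1 at 55.3 against 279 and 319. S100A2, of basal epithelium, was at 6.35 CPM against 28 and 28. These genes were picked by that p, so their separation is a description. The genes that rose over control did not pass against LM2: KRT75 was at 167 CPM against 273 and 244, ITGB4 at 306 against 471 and 442, RASIP1 at 22.6 against 23.3 and 26.8, and SERPINA1 at 187 against 143 and 102.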

How the data were processed

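Per the labels' protocols, messenger RNA was enriched on oligo-dT beads and sequenced from dUTP-marked KAPA libraries. Per the submitters' processing notes, alignment used STAR 2.7.1a and hg38. Which program counted reads, with which annotation and strand option, is not given in the sources used here, so overlapping and antisense genes may share reads. The deposited values are raw counts of reads per gene, and 0 columns were left unused. Unnamed rows held 0.0034% to 0.0044% of counts and were kept in the library totals. Symbols and GRCh38 coordinates were taken from GENCODE release 29 (58216 of 58336 identifiers matched) and current symbols (57754 matched). Promoters are from RefSeq GRCh38.p14.

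The quasi-likelihood test was that of edgeR 4.0.16 in R 4.3.3 (TMM, robust, filterByExpr at a minimum count of 10, 15673 genes), with Benjamini-Hochberg adjustment at 0.05. All 6 libraries entered in 4 groups, with 2 residual degrees of freedom. The single bleomycin library was assumed to vary like the control and LM2 pairs. The step was tested on simulated data. The fold rule compared TMM CPM with a prior count of 2 and has no test. No pair was 1 library deposited again: chi-square over degrees of freedom was 7.81 between the controls and 70.8 between the LM2 libraries. Mitochondrial transcripts took 5.35% to 7.08% of counts. Clone numbers in the titles pair libraries. The deviations of clone 1 in the control and LM2 pairs had a correlation of 0.00115 across 15673 genes.

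Genes were named by a rule: up to 12 in each direction that passed, protein coding, with a mean log2 CPM of 2 or more, filled with genes 2-fold beyond both controls by the smaller ratio; up to 4 such members of each list; and core genes. Members and lists were chosen with earlier results of these data known. Of 883 list genes, 872 were matched, and some are not reported here. Alternatives were DESeq2 1.42.0, other scaling, other filters, other sets of libraries and the replicate block.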

Additional observations from a re-analysis of the deposited data

How the results depend on the processing

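The 4 genes higher and 0 lower became 711 and 719 without the filter on low counts, 254 and 326 with DESeq2, and 2021 and 2161 in a fit of bleomycin and control libraries only. The replicate block, paired by clone, gave 11 and 2. With 1 library left out in turn the counts ran from 0 to 2113 higher and from 0 to 2311 lower: 0 and 0 without either control, 3 and 0 without the ITGB4-high library, and over 2000 in each direction without either LM2 library. RLE factors gave 3 and 0, with SERPINA1 at adjusted p = 0.0552 (edgeR), and without the ITGB4-high library it had 0.0527. Against LM2 lung cells, 0 and 0 became 100 and 136 without the filter and 14 and 42 with DESeq2. Leaving out 1 library gave 0 to 1370 higher and 0 to 1599 lower, and the replicate block 0 and 0. The blocked fit gave 13 calls against control in all. Of 124 named genes the block brought 3 past the threshold, DESeq2 61 and no filter 71. A fit of bleomycin and control libraries only, or without LM2 clone 1, left 8 where they were and the rest past the threshold, and without LM2 clone 3, 7. Leaving out either control lost all 3 named calls.

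At 4-fold, 364 genes were above and 326 below both controls in place of 942 and 1045. RLE factors gave 957 and 1017, library totals alone 946 and 1033, and a minimum of 1 CPM 780 and 894. With 1 control the counts were 1221 to 1372 above and 1277 to 1343 below. Without chromosome 11 genes before 28 Mb, an alternative chosen after seeing the data, they were 917 and 1032. Counts under about 50 reads, as for the epithelial regulators, limit ratios by counting error alone.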

Other observations

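Some genes were nearly silent on one side of the comparison. Of all tested genes, 15 had under 3 reads in both controls and at least 50 in bleomycin lung cells, and 15 had at least 50 in both controls and under 3 in bleomycin lung cells, whereas 0 genes were so divided between the 2 controls. The thresholds and these genes were chosen after the values were seen. AMZ1, a metalloprotease gene, had 403 reads against 0 and 1. CYBA, a subunit of the phagocyte NADPH oxidase, had 159 against 1 and 2, and the glycerol channel gene AQP9 had 112 against 1 and 1. EHF, an epithelial transcription factor, had 95 against 0 and 1. Their levels in LM2 lung cells were 165 and 10 reads for AMZ1, 10 and 27 for CYBA, 15 and 1 for AQP9 and 152 and 6 for EHF. On the silent side ZC3H12B had 0 reads against 130 and 287, and TMEM98 had 0 against 125 and 228. CNTN5, a neural adhesion gene, had 0 against 103 and 181, which is at least 37.1-fold lower. NKX2-1, a lung and thyroid transcription factor that also stands on the lung epithelial list, had 0 against 59 and 85, at least 20.3-fold lower. In all, 15 of the genes gained and 14 of those lost were protein coding.

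Receptors of the interleukin-1 family that neighbour each other on chromosome 2 stood above the controls, and were picked after their values were seen. IL1RL1 was at 1064 CPM against 104 and 82.7, and at 351 and 234 in LM2 lung cells (adjusted p = 0.0773 by edgeR against control). IL18R1 was at 566 CPM against 149 and 137 (adjusted p = 0.0649 by edgeR). Their annotated spans overlap on the same strand, so reads may be shared. IL1R2, the decoy receptor, was at 16.1 CPM against 0.623 and 0.965, and IL1R1 at 293 against 122 and 169. IL18RAP, next in the row, was at 1.15 CPM against 1.80 and 0.873, within the control range. IL33, the ligand of IL1RL1, had 30 reads against 0 and 3, and IL18, the ligand of IL18R1, stood at 63.2 CPM against 71.0 and 68.8.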
